A study of Homo sapiens with 6 samples.

Results

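Histone messenger RNA is made and finished by a dedicated set of proteins, and 7 of their genes are described here in A375 cells, an established human melanoma line, with and without the small molecule BMH-21. They are the transcription factors NPAT and HINFP, the scaffold protein CASP8AP2 (also called FLASH), and the 3-prime processing factors SLBP, LSM10, LSM11 and ZNF473. They were picked by gene symbol, and all 7 were found among the 25662 gene symbols for which transcript levels were deposited. One group of libraries came from cells given 1 µM BMH-21 for 24 hours, and the other from cells given the solvent DMSO, whose titles call them time 0. The labels do not settle whether the control cells were cultured as long as the treated ones. A difference in culture time could not be told apart from the compound in any change given here. BMH-21 binds DNA and blocks RNA polymerase I, which transcribes the ribosomal RNA genes. Each group holds 3 libraries, and all 6 come from the same cell line grown in serum-containing medium, with no genetic change named.

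Most messenger RNAs end in a poly(A) tail, but those of the replication-dependent histones end just after a short stem-loop. SLBP binds that stem-loop and stays with the RNA for its processing, export, translation and decay. The U7 small nuclear ribonucleoprotein pairs with the RNA downstream of the stem-loop and carries LSM10 and LSM11 in place of the spliceosomal proteins SNRPD1 and SNRPD2. ZNF473, a zinc finger protein, bridges SLBP and U7, and CASP8AP2 binds LSM11 and brings in the cleavage enzymes. NPAT activates histone genes after phosphorylation by cyclin E with CDK2 at the entry to S phase, and HINFP is a zinc finger protein that binds histone H4 promoters and works with NPAT.

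The stem-loop is shown because it is the RNA element that SLBP recognises. The sequences below were read from annotated transcripts (GENCODE release 29, build GRCh38) of the gene with the largest rise after BMH-21 in each histone class that had a match among called genes, a choice made with the values known. Capitals mark the 16-base stem-loop, and 5 bases are given on each side, 5′ to 3′ on the RNA strand, written with T.
H2AC6 (chr6:26124664-26124689, plus strand): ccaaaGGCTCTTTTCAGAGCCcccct
H2BC21 (chr1:149886183-149886208, minus strand): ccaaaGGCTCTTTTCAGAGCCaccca
H3C10 (chr6:27810511-27810536, plus strand): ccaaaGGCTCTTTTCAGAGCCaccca
H4C14 (chr1:149833027-149833052, plus strand): ccaaaGGCCCTTTTTAGGGCCgacca
The H2A, H2B and H3 stem-loops are identical over the capitals, and that of H4C14 differs from them. Of 62 replication-dependent histone genes with a deposited level, 58 were matched by symbol to an annotated transcript. H2AC18, H2AC19, H3C2 and H3C3 were not matched, so their transcripts were not searched. Of the 58, 29 held a stem-loop of this kind, in 5 sequence variants, the commonest in 15 genes. Over all annotated genes, 47 of 58676 held one (0.0801%). The search saw annotated transcripts only, so a histone gene without a match cannot be said to lack the element. Some histone transcripts without a match are short, such as those of H4C12 (312 bases) and H2BC12 (381 bases), and may end before it.

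How the RNA was selected matters for transcripts without a poly(A) tail, and the labels differ on it. Their protocol describes depletion of ribosomal RNA and random priming, while their molecule field names polyadenylated RNA. Levels are given in TPM, a relative abundance per transcript length that the authors deposited, so levels of different genes can be compared. TPM carries no read totals, and the depth is unknown. Pairs of libraries within a group had Pearson's r of 0.980 to 0.992 across tested genes, which are no independent replicates, and pairs from opposite groups had 0.934 to 0.949. Mitochondrial transcripts made up 7.61% of control replicate 2 and 10.9% to 14.6% of the other libraries, and calls of named genes that change without that library are pointed out. Of the melanoma markers, SOX10 was at 540 ± 126 TPM and S100B at 77.5 ± 2.71 TPM in control libraries (SD, n = 3), MITF was at 1.42 ± 0.423 TPM, MLANA was listed at 0 in every library, and TYR and DCT had group means of 0.0511 TPM or less. SOX10 and S100B were thus present, the pigmentation genes MLANA, TYR and DCT were at or near 0, and PMEL was low, at 0.809 ± 0.223 TPM in control libraries and 1.70 ± 0.0995 TPM after BMH-21. Of 5 listed markers of keratinocytes, endothelium and fibroblasts, KRT14 had the highest level, 3.54 ± 1.44 TPM before and 3.67 ± 0.711 TPM after BMH-21.

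After BMH-21, SLBP fell and HINFP rose, LSM10, LSM11 and ZNF473 shifted by amounts that did not pass the test, and NPAT and CASP8AP2 were too low to be tested. A gene was tested when its mean reached 1 TPM over the 6 libraries, and changes are differences of the group means of log2(TPM + 1), with ± for their standard error. The adjusted p-values come from limma with Benjamini-Hochberg adjustment over all tested genes, and calls were made at an adjusted p under 0.05. Among the 7 genes, 1 was called higher and 1 lower. Over 12481 tested genes, 36.2% were called, 23.3% higher and 12.9% lower, so calls were common throughout. The groups did not overlap for any of the 5 tested factors and overlapped for both untested ones, and they did not overlap for 52.3% of all tested genes. The median change over the 5 tested factors was -0.17, and over all tested genes it was 0.19. TPM summed over the 7 genes was 143 ± 1.00 in controls and 145 ± 2.37 with BMH-21 (log2 difference 0.03, exact two-sided permutation p = 0.2, where 0.1 is the smallest p that 3 against 3 libraries allow). With the libraries scaled by median of ratios that difference was -0.16 (exact p = 0.1).

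**Figure D1:**
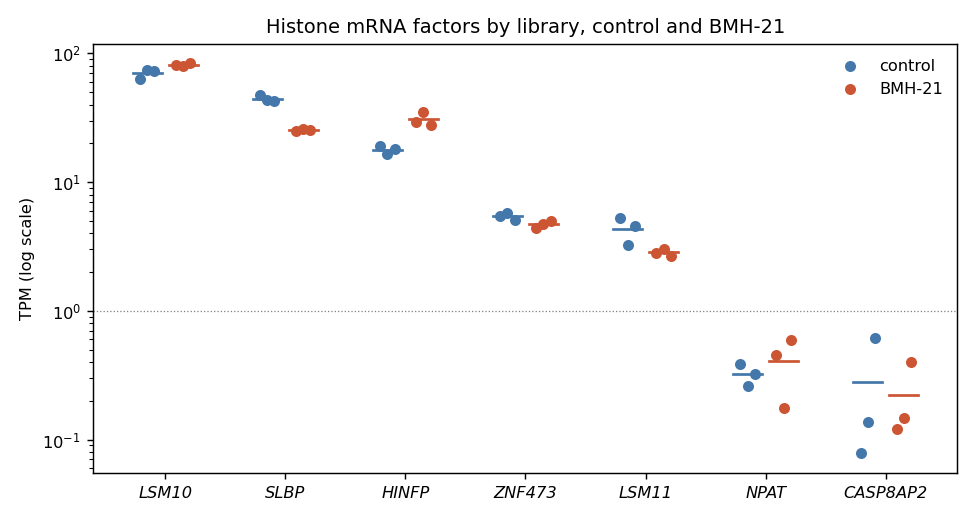
TPM of the 7 histone mRNA factors on a log axis, with 1 point per library, 3 control (blue) and 3 BMH-21 (orange), a short line at each group mean, and a dotted line at 1 TPM. The SLBP points are lower and the HINFP points higher with BMH-21, and NPAT and CASP8AP2 lie below 1 TPM in all 6 libraries.

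The 7 genes spanned a wide range of levels. In controls the order of means was LSM10, SLBP, HINFP, ZNF473, LSM11, NPAT and CASP8AP2. The ranges over libraries of LSM10, SLBP and HINFP did not meet in controls, while those of ZNF473 and LSM11 overlapped, as did those of NPAT and CASP8AP2. After BMH-21 the order was the same except that HINFP lay above SLBP. The ratio of HINFP to SLBP TPM was 0.402, 0.381 and 0.426 in control replicates 1 to 3 and 1.18, 1.36 and 1.09 in BMH-21 replicates 1 to 3. HINFP was thus below SLBP in 3 of 3 control libraries and above it in 3 of 3 BMH-21 libraries. The log2 difference of the ratio was 1.58 (exact permutation p = 0.1, 0.12 adjusted over 6 ratios). Because HINFP was higher and SLBP lower without overlap, the ratio had to separate the groups, and its p adds no evidence.

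Among the transcription factors, HINFP was at 19.2, 16.4 and 18.1 TPM in control replicates 1 to 3, against 29.4, 34.8 and 27.6 TPM in BMH-21 replicates 1 to 3. Every BMH-21 library was above every control. The group means were 17.9 ± 1.39 and 30.6 ± 3.76 TPM (SD, n = 3 each), a ratio of 1.71 and a log2 change of 0.74 ± 0.12 (95% interval 0.45 to 1.03, adjusted p = 0.00293). Relative to the median gene the change was 0.55. HINFP was called under all 15 alternative processings, with changes from 0.56 to 0.81.

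HINFP lies on chromosome 11 (119121587 to 119136044, plus strand, GRCh38). Its promoter is printed because it is the member that rose, from 250 bases before to 50 bases after the start (RefSeq, GRCh38.p14, chr11:119121330-119121629, plus strand). Capitals mark matches to the CCAAT box on the opposite strand.
HINFP promoter: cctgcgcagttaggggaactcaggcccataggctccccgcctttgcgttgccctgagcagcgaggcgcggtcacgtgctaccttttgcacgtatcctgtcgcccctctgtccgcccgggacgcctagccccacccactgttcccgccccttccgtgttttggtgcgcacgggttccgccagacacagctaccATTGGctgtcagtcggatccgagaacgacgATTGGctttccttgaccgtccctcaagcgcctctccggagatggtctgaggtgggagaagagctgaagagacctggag
The window holds 2 CCAAT boxes, and a CCAAT box on either strand was found in 34.6% of 34796 promoter windows of this length. No match was found in it to the E2F sites TTTGGCGC, TTTCCCGC and TTTCGCGC, to the HINFP core ACGTCCG or to the cell-cycle element TTTGAA.

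NPAT was at 0.389, 0.261 and 0.322 TPM in control replicates 1 to 3, against 0.453, 0.176 and 0.593 TPM in BMH-21 replicates 1 to 3. The control range lay inside the BMH-21 range. With the filter on low values removed, its log2 change was 0.08 ± 0.12 (adjusted p = 0.688, where 18.6% of 22944 genes were called). NPAT lies on chromosome 11 (108157215 to 108222642, minus strand) head to head with ATM, a DNA damage kinase gene, and the annotated exons of the pair share 143 bases. The ATM level was 1.21 ± 0.516 TPM without and 1.54 ± 0.916 TPM with the compound (adjusted p = 0.670). Whether reads were counted by strand is not given in the sources used here, so reads from the shared bases cannot be assigned with certainty.

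CASP8AP2 was at 0.0780, 0.137 and 0.618 TPM in controls, against 0.120, 0.148 and 0.397 TPM with BMH-21. In both groups replicate 3 was the highest library, and the groups overlapped. Without the filter its log2 change was -0.05 ± 0.17 (adjusted p = 0.866). The annotated principal transcripts of NPAT and CASP8AP2 are 6117 and 6151 bases long, against 850 bases for LSM10 and 1977 for SLBP. No change was detectable for NPAT or CASP8AP2 at these levels. Of the 6 promoter windows found for the 7 genes, the CASP8AP2 window alone held an exact match to a searched E2F sequence. Such a match was present in 2.73% of all windows, and variants of these sequences were not searched.

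Among the processing factors, SLBP was at 47.7, 43.1 and 42.5 TPM in control replicates 1 to 3, against 25, 25.7 and 25.3 TPM in BMH-21 replicates 1 to 3. The 3 BMH-21 values lay close together and well below the controls. The means were 44.4 ± 2.87 and 25.3 ± 0.352 TPM, a ratio of 0.570 and a log2 change of -0.79 ± 0.09 (95% interval -1.0 to -0.57, adjusted p = 0.000570). Relative to the median gene the change was -0.97. SLBP was called under all 15 alternatives, with changes from -0.97 to -0.73. In bulk RNA, fewer cells that express a gene and less RNA in each such cell cannot be told apart.

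SLBP lies on chromosome 4 (1692800 to 1712555, minus strand). Its promoter is shown as the counterpart of the HINFP window (RefSeq, GRCh38.p14, chr4:1712270-1712569, minus strand, same length).
SLBP promoter: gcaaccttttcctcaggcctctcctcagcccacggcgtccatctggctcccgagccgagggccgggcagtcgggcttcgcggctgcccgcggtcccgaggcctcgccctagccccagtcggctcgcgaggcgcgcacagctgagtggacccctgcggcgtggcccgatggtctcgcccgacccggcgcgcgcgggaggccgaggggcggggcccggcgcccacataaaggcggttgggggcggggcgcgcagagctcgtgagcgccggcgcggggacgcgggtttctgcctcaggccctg
It has no capitals, since none of the searched E2F, CCAAT, HINFP or TTTGAA motifs matched on either strand. Its GC content was 76.7%, against 63.0% for HINFP and a median of 58.7% over all windows.

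LSM10 was at 63.7, 74.0 and 72.7 TPM in controls, against 81.2, 79.5 and 83.3 TPM with BMH-21, so the groups did not overlap. The log2 change was 0.21 ± 0.09 (95% interval 0.01 to 0.42, adjusted p = 0.0992), close to the 0.19 of the median gene. With median-of-ratios scaling it was 0.03 (adjusted p = 0.880). It passed with both number 2 libraries left out (0.27, adjusted p = 0.0468) and after removal of trends in length and GC content (0.31, adjusted p = 0.0129).

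LSM11, the other U7 subunit, was at 5.25, 3.25 and 4.53 TPM in controls, against 2.83, 3.02 and 2.69 TPM with BMH-21. Control replicate 2 was the lowest control and lay just above the highest BMH-21 library. The log2 change was -0.46 ± 0.18 (95% interval -0.87 to -0.05, adjusted p = 0.0774). Without control replicate 2 it was -0.61 and passed (adjusted p = 0.0124). It passed as well with both number 2 libraries left out (-0.65), after median-of-ratios (-0.60) or quantile (-0.63) normalization and after removal of length and GC trends (-0.60), at adjusted p from 0.0113 to 0.0141.

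ZNF473 was at 5.48, 5.76 and 5.05 TPM in controls, against 4.41, 4.71 and 5.01 TPM with BMH-21. The groups were separated only by the small gap between control replicate 3 and BMH-21 replicate 3. The log2 change was -0.17 ± 0.14 (95% interval -0.49 to 0.15, adjusted p = 0.357), and it passed under none of the 15 alternatives. ZNF473 lies on chromosome 19 (50025714 to 50053414, plus strand) and shares 223 exonic bases with VRK3 on the opposite strand. VRK3, a pseudokinase gene, went from 27.4 ± 2.83 to 37.8 ± 2.88 TPM (adjusted p = 0.0179, called under 11 of 15 alternatives), and reads from the shared bases could enter the ZNF473 level.

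**Figure D2:**
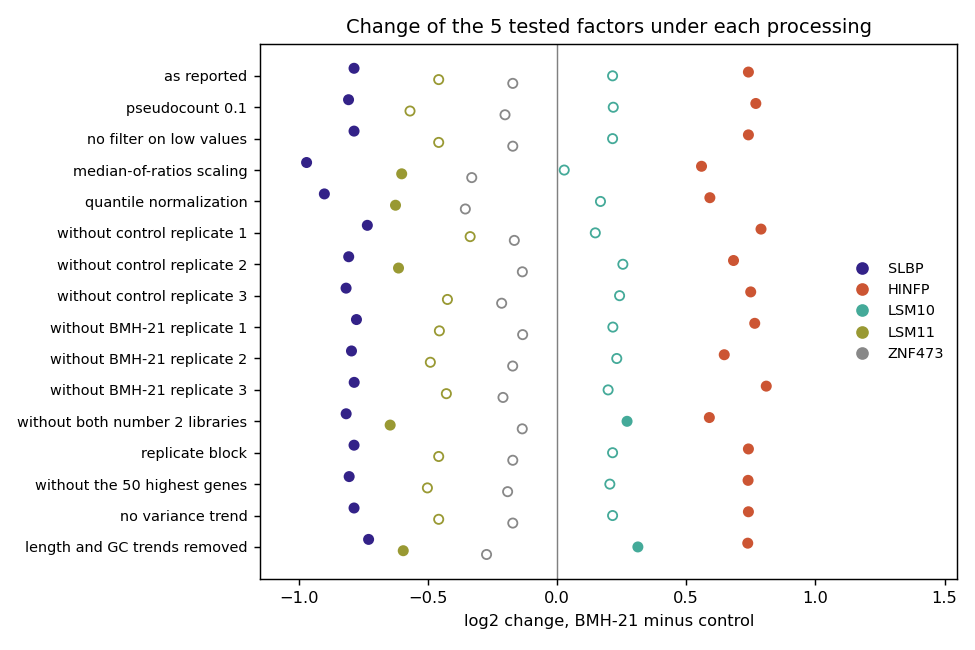
Log2 change (BMH-21 minus control, x axis) of the 5 tested factors as reported and under 15 other processings (rows). Filled points passed at an adjusted p under 0.05. SLBP and HINFP are filled in every row, LSM11 in 5 of the 15 alternatives and LSM10 in 2, ZNF473 in none.

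The U7 ring was set against the spliceosomal ring, since they share 5 Sm proteins and differ in 2 positions. Of the shared proteins, SNRPB fell from 817 ± 20.1 to 416 ± 10.8 TPM, SNRPF from 481 ± 30.9 to 291 ± 19.8 TPM and SNRPG from 507 ± 89.0 to 308 ± 77.0 TPM. The SNRPG call was lost without control replicate 2 or 3 and without the filter (adjusted p up to 0.0634). SNRPD3 was at 49.9 ± 4.26 and 42.4 ± 2.39 TPM (adjusted p = 0.113) and SNRPE at 135 ± 31.8 and 118 ± 33.6 TPM (adjusted p = 0.519). Of the spliceosomal proteins that U7 lacks, SNRPD2 fell from 1507 ± 196 to 1044 ± 33.0 TPM (adjusted p = 0.00731). SNRPD1 fell from 138 ± 24.3 to 80.9 ± 23.9 TPM (adjusted p = 0.0260). That call was lost without the filter and when control replicate 2, control replicate 3 or BMH-21 replicate 1 was left out (adjusted p up to 0.0730). Thus 5 of these 7 Sm genes were called lower, where 12.9% of all tested genes were, while neither LSM10 nor LSM11 was called. For LSM11 the contrast is one of passing the threshold, since its log2 change of -0.46 was near the -0.52 of SNRPD2.

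Ratios within a library do not depend on the scaling between libraries. The ratio of LSM10 to SNRPD1 TPM was 0.560, 0.456 and 0.531 in controls and 0.962, 1.44 and 0.811 with BMH-21, with every BMH-21 library above every control. The ratio of LSM11 to SNRPD2 was 0.00399, 0.00191 and 0.00303 in controls and 0.00267, 0.00300 and 0.00252 with BMH-21, and these overlapped (exact p = 0.8). The ratio of LSM10 to LSM11 was 12.1, 22.7 and 16 in controls and 28.7, 26.4 and 31.0 with BMH-21. The exact permutation p was 0.1 for the first and the third ratio (0.12 adjusted over 6 ratios). In both, LSM10 was higher and the other gene lower without overlap, so that p was fixed in advance and adds no evidence. LSM10 transcripts were the more abundant of the pair in all 6 libraries.

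**Figure D3:**
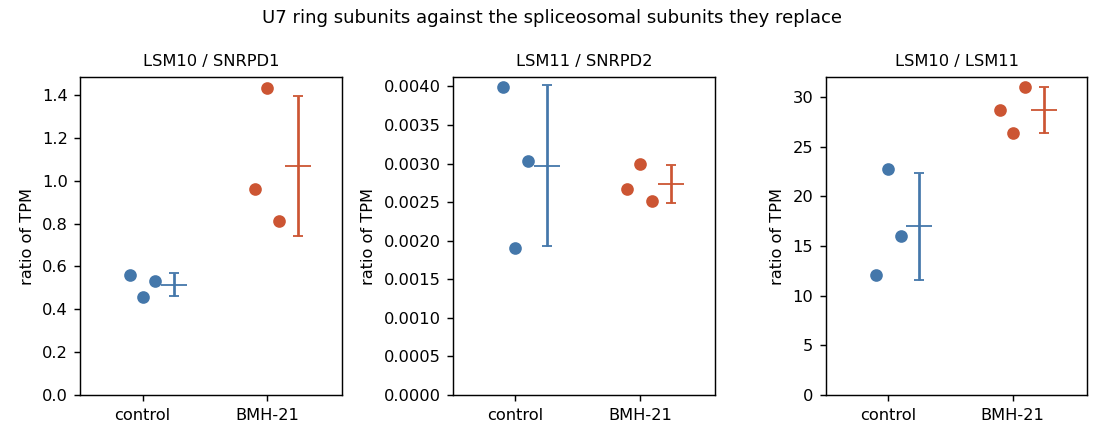
Ratios of TPM within each library for the U7 subunits and the spliceosomal subunits whose positions they take, in control and BMH-21, with 1 point per library and a dash with bars for the mean and SD of 3. The LSM10 to SNRPD1 and LSM10 to LSM11 ratios do not overlap between groups, and the LSM11 to SNRPD2 ratios do.

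The genes LSM1 to LSM8, paralogs of LSM10 and LSM11 that bind other RNAs, moved mostly down. Of 8, LSM2, LSM3, LSM4, LSM5, LSM6 and LSM7 fell, LSM1 rose and LSM8 did not pass, and the LSM5 call was lost without the filter (adjusted p = 0.0501). Their median log2 change was -0.78, against 0.19 for all tested genes, of which 12.9% were called lower and 23.3% higher. LSM4 fell from 271 ± 18.4 to 123 ± 5.10 TPM and LSM2 from 74.0 ± 4.23 to 36.4 ± 2.15 TPM. LSM1, which replaces LSM8 in the cytoplasmic ring that takes part in RNA decay, rose from 13.7 ± 2.05 to 21.1 ± 2.01 TPM (log2 change 0.59 ± 0.14, adjusted p = 0.0134). That call was lost with median-of-ratios scaling (0.41, adjusted p = 0.0851), with quantile normalization and without BMH-21 replicate 3.

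The kinases and cyclins that act on NPAT and SLBP fell. Of 7 genes, 6 were tested and all 6 were called lower (median log2 change -2.44), where 12.9% of all tested genes were. CCNE1, a cyclin E gene, fell from 19.4 ± 1.46 to 9.63 ± 0.732 TPM and its partner CDK2 from 67.0 ± 8.49 to 35.7 ± 2.23 TPM. The phosphatase gene CDC25A, an activator of CDK2, fell from 25.6 ± 2.13 to 4.19 ± 0.292 TPM. CCNA2 (cyclin A2, 11.9 ± 0.505 to 0.362 ± 0.339 TPM) and CDK1 (19.3 ± 6.32 to 1.05 ± 0.668 TPM) belong to the kinase that marks SLBP for destruction after S phase, and CCNF (23.6 ± 4.61 to 3.25 ± 0.465 TPM) to a ubiquitin ligase that acts on SLBP in G2. CCNE2 was below the filter at 1.72 ± 0.714 and 0.150 ± 0.0803 TPM. These genes moved together with SLBP, and their part in its fall was not tested.

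Other transcription factors of histone genes were mostly uncalled. Of 7, E2F1 fell, GON4L rose and 5 did not pass (median log2 change 0.35). E2F1, an activator of S-phase genes, had 38.2 ± 4.06 TPM in controls and only 1.56 ± 0.698 TPM after treatment (log2 change -3.97 ± 0.21, adjusted p = 1.10e-05). GON4L rose from 7.80 ± 1.92 to 12.1 ± 0.982 TPM (adjusted p = 0.0370). Its call held under 8 of 15 alternatives and was lost under the others, among them median-of-ratios scaling and leaving out any single BMH-21 library (adjusted p up to 0.130). YY1, POU2F1, TRRAP, KAT5 and CRAMP1 had changes from -0.18 to 0.58 with adjusted p from 0.102 to 0.326. POU2F1 passed only with both number 2 libraries left out (adjusted p = 0.0363). E2F1 and HINFP thus moved in opposite directions, each with groups that did not overlap.

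The cleavage machinery that processes histone and polyadenylated transcripts alike showed no call. SYMPK, CPSF2, the endonuclease gene CPSF3 and CSTF2 had log2 changes of 0.26, 0.69, -0.12 and -0.09, with adjusted p from 0.0883 to 0.686. CPSF2, the largest of these, was at 2.97 ± 1.45 and 5.26 ± 1.41 TPM, and it passed without control replicate 3 or without BMH-21 replicate 2. Among 7 genes of the cap-binding complex, SRRT and the elongation factor NELF, NELFB fell from 60.3 ± 6.91 to 44.6 ± 3.99 TPM and NELFE from 130 ± 18.2 to 101 ± 1.36 TPM, and 5 did not pass. Of those 5, NELFA (log2 change -0.29, adjusted p = 0.0839) was called lower under 4 of 15 alternatives and NELFCD (-0.14, adjusted p = 0.395) under 3. For both, these include median-of-ratios scaling and leaving out control replicate 2. The NELFE call (adjusted p = 0.0422) held under 5 of 15 alternatives and was lost when control replicate 2 or 3 or any single BMH-21 library was left out. The NELFB call (adjusted p = 0.0236) held under 10 and was lost without replicate 1 or replicate 3 of either group. MIF4GD and CTIF, which help translate histone messages, did not pass (adjusted p = 0.112 and 0.759).

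Of 9 genes of histone mRNA decay, 7 were tested, LSM1 rose and none fell. DCP2, the catalytic subunit of the decapping enzyme, was at 2.71 ± 0.575 TPM before and 1.71 ± 0.468 TPM after BMH-21, with groups that did not overlap (log2 change -0.45, adjusted p = 0.0999). With median-of-ratios scaling DCP2 was called lower (-0.58, adjusted p = 0.0372) and LSM1 was not called, so the tally of the list turned from 1 higher and 0 lower to 0 higher and 1 lower. DCP2 was also called lower after quantile normalization and after removal of length and GC trends. The exonuclease gene ERI1, which trims the stem-loop end, was at 1.94 ± 0.511 and 1.53 ± 0.515 TPM (adjusted p = 0.422). The helicase gene UPF1 was at 59.8 ± 10.9 and 65.9 ± 5.78 TPM (adjusted p = 0.441). The uridyltransferase gene TUT7 and the exonuclease gene XRN1 stayed below the filter, as NPAT and CASP8AP2 did. Over all these lists, 47 genes were tested, 20 were lower and 2 higher, and 15 of the 22 calls held under all 15 alternatives. Over all 12481 tested genes, 12.9% were called lower and 23.3% higher.

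**Figure D4:**
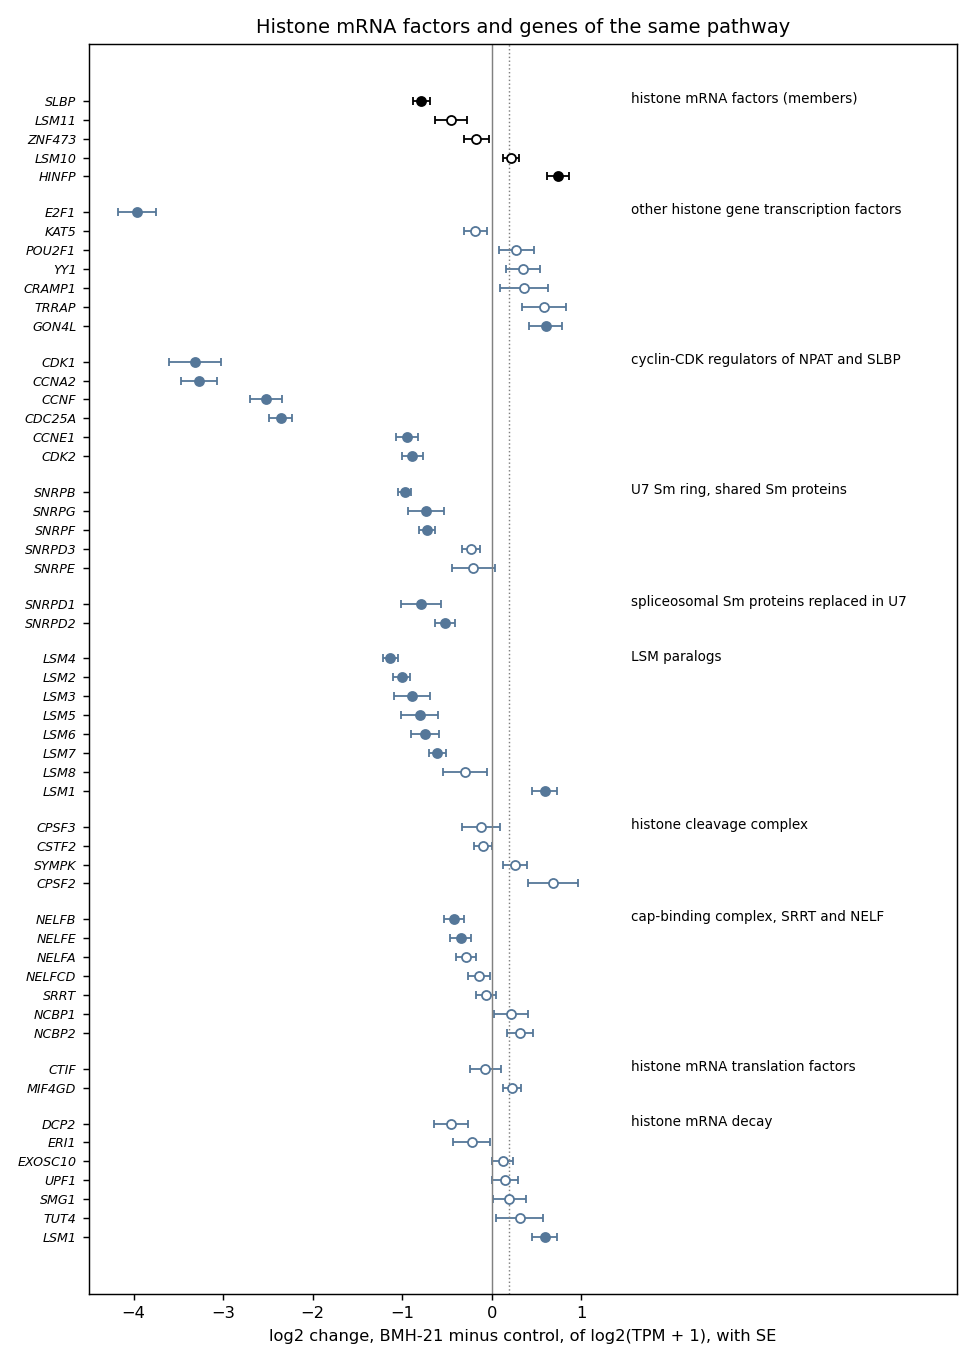
Log2 change (BMH-21 minus control, of log2(TPM + 1)) with its standard error for the tested histone mRNA factors (black) and tested genes of the same pathway (blue), grouped by list, where filled points passed at an adjusted p under 0.05, the solid line is 0 and the dotted line is the median of all tested genes, 0.19. E2F1, CDK1 and CCNA2 lie farthest below 0, and the 5 factors lie between -0.79 and 0.74.

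The histone transcripts that these proteins make and process were higher as a sum. TPM summed over 62 replication-dependent histone genes was 120, 107 and 118 in control replicates 1 to 3 and 616, 633 and 671 in BMH-21 replicates 1 to 3. The ratio of means was 5.56 (log2 difference 2.48, exact permutation p = 0.1, the smallest possible). By class the ratio was 10.4 for H1, 5.86 for H2A, 4.36 for H2B, 3.71 for H3 and 3.98 for H4. Of the 62 genes, 22 passed the filter, through which a gene can come by high BMH-21 values alone, and 18 of these were called higher and 0 lower. Over all tested genes, 23.3% were called higher and 12.9% lower. Of these 22, 9 had a control mean under 1 TPM, so their passing the filter rests on the BMH-21 libraries, and the filter also leaves out genes that were low after BMH-21. Among the 40 genes not tested, the groups overlapped for 29 and did not for 11, of which 8 were higher and 3 lower with BMH-21. The matching share over all untested genes was not worked out, so these counts are only described. The 3 lower ones were H2AC20, H3C3 and H3C7. H2AC20 went against the rest, with 1.39 ± 0.427 TPM in the control group and 0.256 ± 0.0680 TPM in the BMH-21 group (log2 change -0.91, adjusted p = 0.00806 without the filter). Without the filter, 61 histone genes could be fitted, 23 were called higher and 1, H2AC20, lower, where 18.6% of 22944 genes were called. The H4C15 call was lost under 6 of 15 alternatives, among them leaving out control replicate 2.

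Set against their factors, the histone sum was higher with BMH-21 while SLBP fell. Summed histone TPM per SLBP TPM was 2.51, 2.49 and 2.78 in controls and 24.7, 24.7 and 26.6 with BMH-21. The sum of the H4 class, whose promoters HINFP binds, differed by more than HINFP, with 1.90, 1.5 and 1.51 H4 TPM per HINFP TPM in controls and 3.78, 3.20 and 4.65 with BMH-21. Neither ratio overlapped between groups (exact permutation p = 0.1 each, 0.12 adjusted over 6 ratios). For the SLBP ratio this was fixed in advance, since the histone sum was higher and SLBP lower without overlap. Its p therefore adds no evidence. The most abundant gene of the H1 class was H1-2, with a log2 change of 3.32 ± 0.10, and that of H2B was H2BC12, with 1.65 ± 0.11. The leading genes of the other classes have near-identical copies among which reads may be split, so they are given as sums of a pair. H2AC18 with H2AC19 went from 19.4 ± 0.325 to 187 ± 6.99 TPM, H4C14 with H4C15 from 19.6 ± 5.59 to 96.5 ± 7.24 TPM and H3C14 with H3C15 from 0.920 ± 0.890 to 6.60 ± 0.160 TPM.

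**Figure D5:**
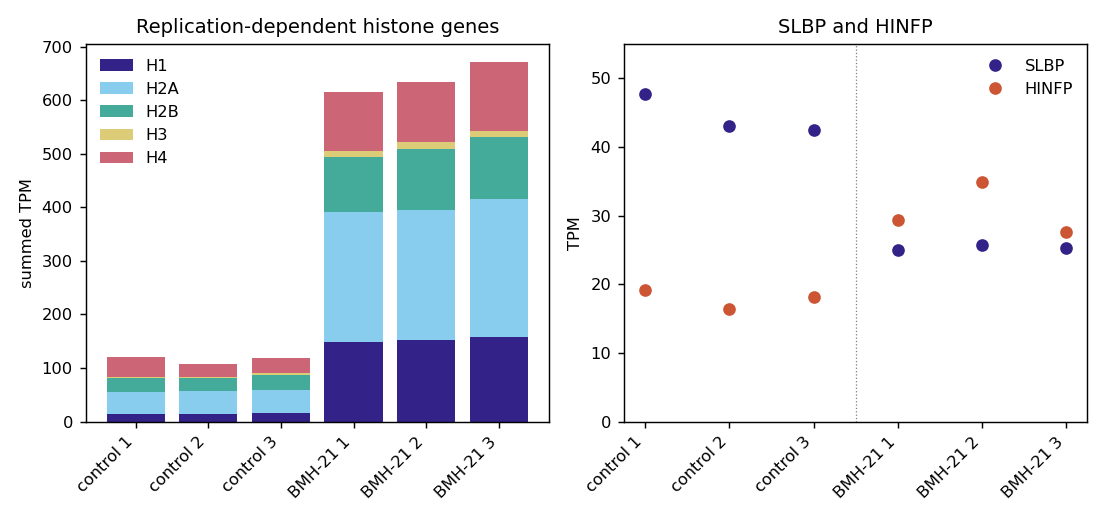
Left, TPM summed over 62 replication-dependent histone genes in each of the 6 libraries, stacked by class. Right, TPM of SLBP and HINFP in the same libraries. The sum is 107 to 120 in controls and 616 to 671 with BMH-21, while SLBP is lower and HINFP higher in the BMH-21 libraries.

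Of the 29 histone genes with a stem-loop in an annotated transcript, 22 also had a transcript annotated to end more than 100 bases past it, as a polyadenylated form would, and 7 did not. The distance was measured along the genome, introns included, and the transcript ending farthest away was not required to hold the stem-loop. The first kind summed to 51.3 TPM in the control group and 219 TPM in the BMH-21 group (means). Of its genes 15 were tested and 12 called higher, where 23.3% of all tested genes were. But 7 of the 15 had a control mean under 1 TPM and passed the filter through the BMH-21 libraries, so this count is partly set by the filter. The second kind summed to 1.49 and 4.62 TPM, and none of its genes reached the filter. All 62 histone genes summed to a mean of 115 TPM without the compound and 640 TPM after it. As far as genes could be sorted, both kinds together thus hold the smaller part of the histone sum in each group. Among genes in neither kind, H1-2 reached 150 TPM after BMH-21 and H2BC12 49.6 TPM. H2AC18 with H2AC19, at 187 TPM after BMH-21, were not matched by symbol to an annotated transcript and so could not be sorted. The transcript ends of genes in neither kind were not tested. The 4 printed stem-loops all belong to the first kind. Annotation decides which transcript ends can be counted, and which annotation the authors used is not given in the sources used here. Whether the RNA counted ended at the stem-loop or beyond it cannot be told from levels per gene.

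The genes next to the 7 on the chromosome were looked up as well. The neighbours of SLBP, FAM53A and TMEM129, did not pass (adjusted p = 0.290 and 0.900). TMEM129 passed only with both number 2 libraries left out (adjusted p = 0.0301). Beside HINFP, C2CD2L was at 15.3 ± 4.25 and 22.8 ± 2.13 TPM (adjusted p = 0.0520) and ABCG4 was below the filter. STK40 beside LSM10 (25.9 ± 3.87 to 39.0 ± 1.97 TPM) and CLINT1 beside LSM11 (13.9 ± 1.76 to 21.8 ± 4.88 TPM) rose. The CLINT1 call (adjusted p = 0.0350) held under 7 of 15 alternatives (adjusted p up to 0.125). Leaving out control replicate 2 was among those under which it was lost. ACAT1 beside NPAT, MDN1 beside CASP8AP2, OSCP1 beside LSM10 and THG1L beside LSM11 did not pass, with adjusted p from 0.124 to 0.580. OSCP1 was called higher when control replicate 2 was left out, alone or with BMH-21 replicate 2. ACAT1 passed with both number 2 libraries left out and after removal of length and GC trends.

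The tested genes closest to SLBP in pattern over the 6 libraries were RFWD3, PYCR1 and TOE1, by the root mean square difference of centred log2(TPM + 1), which was 0.03, 0.04 and 0.04. RFWD3, a ubiquitin ligase gene, fell from 30.9 ± 1.87 to 16.9 ± 0.125 TPM, PYCR1, of proline synthesis, from 80.4 ± 2.87 to 45.4 ± 1.54 TPM, and TOE1, an RNA exonuclease gene, from 34.6 ± 2.39 to 19.4 ± 0.870 TPM. In all, 75 tested genes lay within 0.1 of SLBP. For NPAT the closest were CYRIB, KIF9 and OSBPL11, at 0.04 each, none of them called, and 2559 tested genes lay within 0.2, so this likeness is that of genes with little change.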

How the data were processed

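RNA was sequenced from 3 control and 3 BMH-21 libraries, named by the submitters as biological replicates. The values are TPM per gene symbol, deposited by the authors as a single table with a column for each library. The submitters' processing notes name STAR and Salmon with GRCh38, while for versions, settings, strand use and annotation the sources used here give nothing. Because TPM is scaled to a fixed sum in each library, the value of any gene depends on all others. Salmon divides reads among similar sequences.

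Groups and replicate numbers were taken from the labels. log2(TPM + 1) was fitted per gene with limma 3.58.1 (R 4.3.3), using a variance trend, for genes with a mean of at least 1 TPM, with two-sided tests and Benjamini-Hochberg adjustment over 12481 genes. The pseudocount understates changes of low genes. Sums and ratios were compared by exact two-sided permutation. The fit was checked on simulated data. Alternatives changed the pseudocount, filter, scaling, variance trend, replicate block or libraries used, and removal of length and GC trends was added after seeing the data. The genes and lists were chosen with earlier results of these data known, and the 6 ratios and the stem-loop comparison after seeing the values. Named are all 7 factors, genes of lists of up to 9, the most abundant histone of each class, chromosomal neighbours and the 3 genes closest to SLBP and NPAT. RNU7-1, the U7 RNA, and the ZNF473 promoter were not analysed here, and 1 gene of the list of kinases and cyclins is not reported here and is left out of that list's counts, its median and the figure.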

Additional observations from a re-analysis of the deposited data

How the results depend on the processing

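SLBP and HINFP kept their direction and their call under all 15 alternatives. The number of called factors, 2 as reported, was 4 with both number 2 libraries left out and 4 with length and GC trends removed, where LSM10 and LSM11 were added. Leaving out single libraries gave 2 to 3 called factors. Over all genes, 4519 calls became 2796 without BMH-21 replicate 1 and 2885 without BMH-21 replicate 3, within a range of 2796 to 4809 for single libraries left out. The share of calls that were higher was 64.4% as reported, 44.8% with median-of-ratios scaling and 51.0% with quantile normalization, and the median change of all tested genes was 0.19, 0.02 and 0.06. With median-of-ratios scaling the summed TPM of the 7 factors turned from 0.03 to -0.16 (log2 difference), and the pathway lists gave 24 calls, all lower. Deviations of same-numbered libraries correlated at -0.04, -0.34 and -0.08, and those of other-numbered libraries at -0.31 to 0.33. The correlations were thus no higher for same-numbered libraries. With 3 libraries per group, this does not settle whether same-numbered cultures were handled together. A replicate block gave 2 called factors (SLBP adjusted p = 0.00744, HINFP adjusted p = 0.0174), 19 called pathway genes and 3223 called genes. With the block the histone sum had a log2 difference of 2.48 (exact sign-flip p = 0.25, the smallest possible). Depth is unknown, and levels below 1 TPM, those of NPAT and CASP8AP2, limit what could be detected.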
